A study of Homo sapiens with 2 samples.

Results

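The genes described here encode the degradative enzymes of the lysosome, proteins of its membrane, and the proton pump that acidifies it. The list of 51 gene symbols was matched by Ensembl gene ID to read counts from HEK293T, a long-established line derived from human embryonic kidney, and all 51 were found among 57820 gene IDs. They were divided by role into 27 luminal proteins, 8 proteins of the lysosomal membrane, 2 accessory proteins of the proton pump, 6 subunits of its membrane sector V0 and 8 subunits of its cytosolic sector V1. Polyadenylated RNA was sequenced in 2 libraries, 1 of cells depleted with SRα siRNA and 1 of cells that received control siRNA. SRα, encoded by SRPRA, is a subunit of the receptor that brings ribosomes bound by the signal recognition particle (SRP) to the endoplasmic reticulum (ER). The labels name no other treatment, and neither the time after transfection nor the number of cultures behind a library is stated. Since each group is a single library, differences could not be set against replicates and no p-value is given. Intervals cover counting error only, and in bulk RNA fewer cells of a type and less RNA per cell cannot be told apart.

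Lysosomal hydrolases are made with an N-terminal signal sequence, pass through the ER and Golgi, receive a mannose 6-phosphate tag and are sorted by receptors to the lysosome. The V-ATPase is a rotary pump in which the V1 sector, made on free ribosomes in the cytosol, burns ATP and the V0 sector carries protons across the membrane. TFEB and its relatives of the MiT/TFE family are transcription factors known to act on many of these genes through a shared E-box-like promoter motif when lysosomes are stressed. The comparison addresses whether the messages of these proteins, many of which enter the ER, change in level when SRα is depleted.

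Reads assigned to genes numbered 3896721 in the SRα siRNA library and 2445200 in the control siRNA library. SRPRA had 449 reads (117 CPM) in the SRα siRNA library, against 507 reads (205 CPM) in the control siRNA library, a log2 ratio of -0.81 (95% counting interval -0.998 to -0.63). CPM is the depth-normalised read count, with library sizes scaled by TMM. Of the HEK293T markers, VIM had 386 CPM in the SRα siRNA library and 311 CPM in the control siRNA library, and NEFM had 137 CPM with SRα siRNA and 110 CPM with control siRNA. Summed over the 6 HEK293T markers there were 560 CPM with SRα siRNA and 462 CPM with control siRNA, and the part of this in the results was not tested. Of the 6, 3 were higher and 3 lower in the SRα siRNA library: PAX2 was also higher, at 7 reads with SRα siRNA and 1 read with control siRNA, and the log2 ratios of GATA3, KRT8 and KRT18 were -0.54, -0.30 and -0.10. Of 6 markers of other cell types, the blood and liver markers PTPRC, CD3E, HBB, ALB and LYZ had 0 or 1 read in each library, while the collagen gene COL1A1 had 44 reads in the SRα siRNA library and 31 in the control siRNA library.

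Messages of the lysosome differed little between the libraries. Of the 51 genes, 47 were measured, meaning that their CPM averaged 1 or more across the libraries. Of these, 25 were lower and 22 higher in the SRα siRNA library, against 48.6% lower and 51.4% higher among all 12747 measured genes. Their median log2 ratio was -0.01, against 0.01 over all measured genes. A log2 difference of at least 0.322 was reached by 0 members downward and 1 upward, against 15.1% and 14.5% of all measured genes, and NPC2 stood just short of it at 0.318. None of the 47 was lower by 1.5-fold or more, where 6.97% of all measured genes were, and 1 (ATP6V0C, from 8 reads with SRα siRNA and 2 with control siRNA) was higher by that much, where 6.55% were. The members are read more deeply than most genes, with a median of 367 reads in the SRα siRNA library and 256 in the control siRNA library, against 88 and 58 reads for the median measured gene. The SD of the log2 ratio was 0.480 over all measured genes and 0.152 over those of at least 50 CPM. Of 2717 measured genes between the quartiles of the members' CPM, 53 were lower and 77 higher by a log2 difference of at least 0.322. By 1.5-fold or more, 2 of the 2717 were lower and 0 higher. Small differences are thus usual at this depth and not particular to the members.

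For 5 of the 47 members the counting interval lay below 0, and for none did it lie above 0, where 3.39% and 5.46% of all measured genes did. Among genes of at least 50 CPM, a limit chosen after the values had been seen, the interval lay below 0 for 5 of 35 members (14.3%) and above 0 for 0 of 35, against 4.89% and 11.7% of 4007 genes. Of those 35 members, 21 were lower, against 40.1% of the 4007 genes. The 5 were GLA, PPT1, PSAP and GRN, all luminal, and the V0 subunit ATP6V0A2. With DESeq2 size factors the interval of ATP6V0A2 held 0 (4 members below) and that of the V0 subunit ATP6V0D1 lay above 0. With the median of genes of like GC content removed, PSAP held 0, CTSC lay below 0 and ATP6V0D1 lay above 0. These intervals compare 2 libraries, not 2 conditions.

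**Figure D1:**
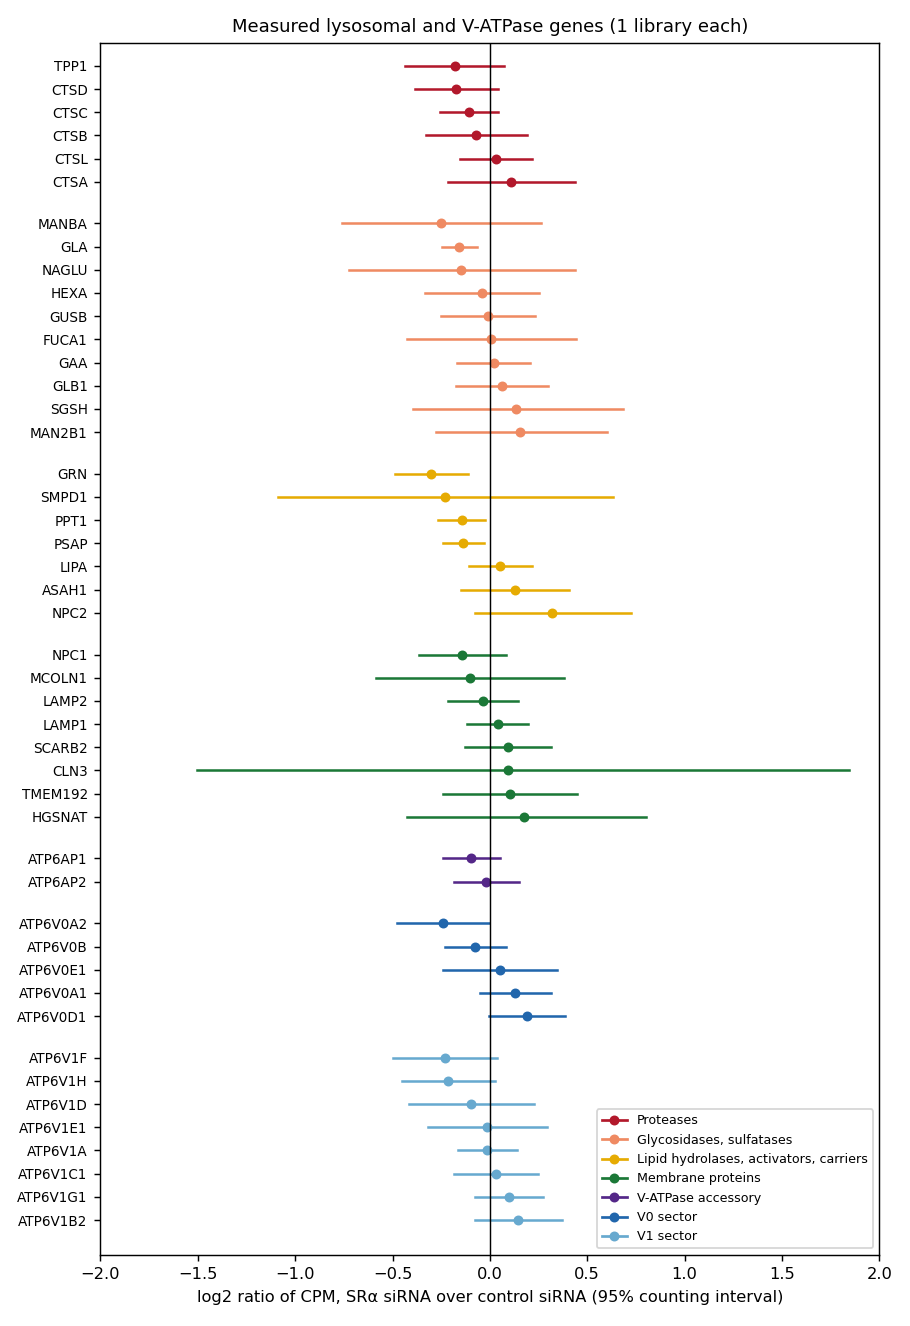
Log2 ratio of CPM, SRα siRNA over control siRNA, for 46 of the 47 measured members, coloured by role, with 95% counting intervals as bars (1 library per group). ATP6V0C, whose log2 ratio of 1.21 rests on 10 reads, is left off for scale, and the intervals of GLA, PPT1, PSAP, GRN and ATP6V0A2 lie left of 0.

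Luminal proteins and V1 subunits differ in sequence by the hydrophobic stretch near the N-terminus that SRP recognises. The first 90 coding bases of 8 members are shown, read from the longest GENCODE 29 coding sequence, to set a soluble hydrolase, a lipid hydrolase cofactor, a glycosidase, a membrane protein and a pump accessory protein beside a membrane protein and pump subunits without such a stretch. Capitals mark the codons of the 12 residues with the highest mean Kyte-Doolittle hydropathy among the first 40.
CTSD: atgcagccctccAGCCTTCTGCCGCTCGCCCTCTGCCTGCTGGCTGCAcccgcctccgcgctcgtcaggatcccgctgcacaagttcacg
PSAP: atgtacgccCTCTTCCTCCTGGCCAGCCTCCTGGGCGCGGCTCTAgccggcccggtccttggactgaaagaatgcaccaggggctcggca
GLA: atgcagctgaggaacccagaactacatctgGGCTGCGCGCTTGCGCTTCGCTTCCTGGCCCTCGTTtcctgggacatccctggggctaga
LAMP1: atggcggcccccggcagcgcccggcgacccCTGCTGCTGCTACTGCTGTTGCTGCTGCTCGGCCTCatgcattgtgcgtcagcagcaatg
ATP6AP2: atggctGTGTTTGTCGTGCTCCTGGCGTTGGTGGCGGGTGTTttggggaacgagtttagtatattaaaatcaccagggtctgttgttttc
MCOLN1: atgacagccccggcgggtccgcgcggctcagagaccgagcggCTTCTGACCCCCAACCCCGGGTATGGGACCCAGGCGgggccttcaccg
ATP6V1A: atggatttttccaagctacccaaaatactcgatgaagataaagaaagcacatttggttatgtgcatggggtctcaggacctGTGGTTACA
ATP6V1G1: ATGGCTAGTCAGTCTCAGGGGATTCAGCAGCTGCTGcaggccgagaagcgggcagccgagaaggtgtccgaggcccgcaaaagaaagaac

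The highest mean hydropathy of these windows was 2.36 in CTSD, 2.48 in PSAP, 2.10 in GLA, 3.45 in LAMP1 and 3.20 in ATP6AP2. It was -0.36 in MCOLN1, 1.44 in ATP6V1A (whose window runs past the stretch shown) and -0.02 in ATP6V1G1. A value of at least 2.0, the limit used here for such a stretch, was reached by 24 of 27 luminal proteins, 5 of 8 membrane proteins, both accessory proteins, 2 of 6 V0 subunits and 0 of 8 V1 subunits, against 14.0% of 11442 measured protein-coding genes. The 3 luminal genes below the limit were GUSB, MAN2B1 and ASAH1, at 1.65, 1.03 and 1.34. Only the longest coding sequence and its first 40 residues were scanned. A stretch in another isoform or farther on would be missed, so these 3 are not shown to lack one. MCOLN1, CLN3 and TMEM192 were the membrane proteins below the limit, and a scan for 19-residue windows averaging 1.6 or more gave 6, 7 and 4 hydrophobic segments in them, against 0 in every V1 subunit.

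Measured members with an N-terminal window of at least 2.0 had a median log2 ratio of -0.04, with 17 of 29 lower under SRα siRNA. For the other measured members the median was 0.06, with 8 of 18 lower. These others include the luminal GUSB, MAN2B1 and ASAH1, the membrane proteins MCOLN1, CLN3 and TMEM192, and V0 subunits such as ATP6V0A1. The split thus does not separate proteins that enter the ER or its membrane from those that do not. The same split over all measured protein-coding genes gave a median of -0.08 with 61.4% of 1607 genes lower at or above the limit, and 0.02 with 46.0% of 9835 genes lower under it. Among protein-coding genes of at least 50 CPM the medians were -0.04 (62.2% of 426 lower) and 0.05 (37.1% of 3456 lower). GC content moved with the split, with medians of 47.0% and 46.1% in those 2 sets. The medians were 49.1% and 47.4% over all measured protein-coding genes, and 50.7% and 47.3% in the members. Over 3958 genes of at least 50 CPM, the log2 ratio and GC content had a Spearman's rho of -0.28, and over the 47 members -0.07. The part of GC content in the difference was not tested. Within the 47 members no graded relation of the log2 ratio to hydropathy was seen (Spearman's rho of -0.07 and Pearson's r of -0.05 across genes). The genes share the same 2 libraries and are not independent replicates.

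**Figure D2:**
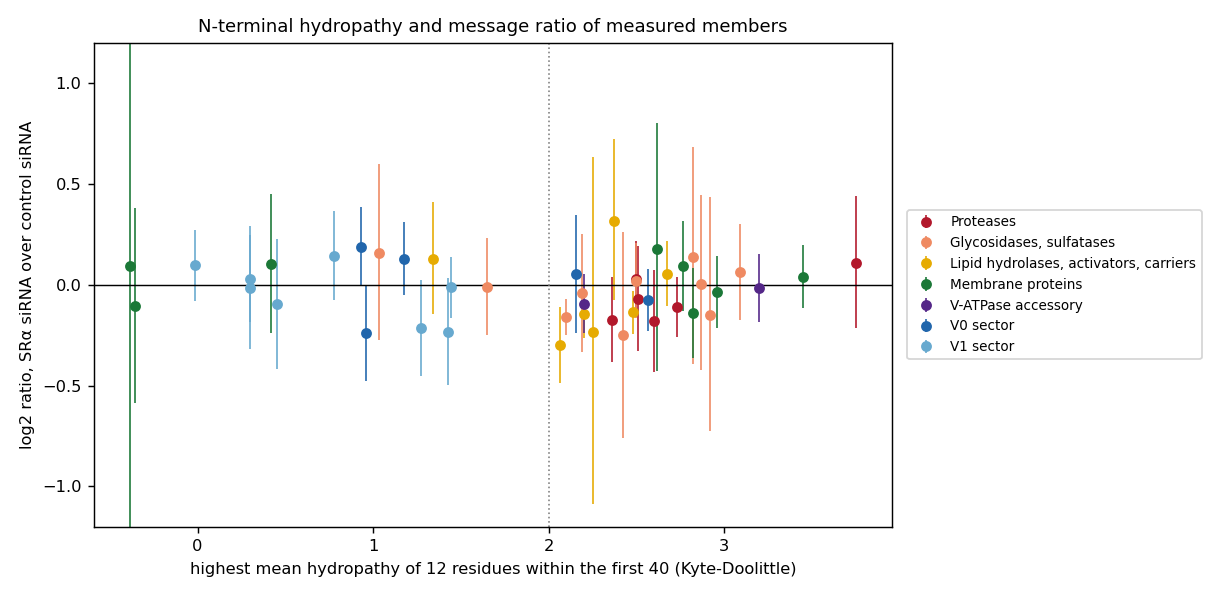
Highest mean hydropathy of 12 residues within the first 40 (x axis, Kyte-Doolittle units) against the log2 ratio of SRα siRNA over control siRNA with its 95% counting interval (y axis) for 46 measured members (all but ATP6V0C), coloured by role, with the bar of CLN3 running past both ends of the axis. The V1 subunits all lie left of the dotted line at 2.0, most luminal proteins lie right of it, and on both sides of the line points lie above and below 0.

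The luminal proteins were slightly lower in sum in the SRα siRNA library. Summed over the 23 measured luminal genes, there were 3167 CPM in the SRα siRNA library and 3369 CPM in the control siRNA library, a log2 ratio of -0.09 (-0.13 to -0.05), while the median gene had -0.04, with 13 lower and 10 higher. Without GLA, α-galactosidase A, the summed ratio was -0.07 (-0.12 to -0.03). The other 4 luminal genes were not measured.

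The proteases had a summed log2 ratio of -0.08 (-0.16 to 0.01) and a median of -0.09, with 4 of 6 measured genes lower. Cathepsin D (CTSD, ENSG00000117984.8), the main aspartic protease of the lysosome, had 437 reads (114 CPM) in the SRα siRNA library and 317 reads (128 CPM) in the control siRNA library, a log2 ratio of -0.17 (-0.38 to 0.04). TPP1, a tripeptidyl peptidase lost in a childhood form of neuronal ceroid lipofuscinosis, had 307 reads (79.8 CPM) with SRα siRNA and 224 reads (90.5 CPM) with control siRNA, a log2 ratio of -0.18 (-0.43 to 0.07). Both lay lower with SRα siRNA by less than counting error can resolve. CTSC, the dipeptidyl peptidase that activates granule serine proteases, had 235 CPM with SRα siRNA and 253 CPM with control siRNA (log2 ratio -0.11, -0.26 to 0.04), and the cysteine protease CTSB had 79.3 CPM with SRα siRNA and 83.2 CPM with control siRNA (-0.07, -0.33 to 0.19). On the other side of 0 stood CTSL, a further cysteine protease, with 161 CPM with SRα siRNA and 158 CPM with control siRNA (0.03, -0.16 to 0.22), and CTSA, the carboxypeptidase that also protects β-galactosidase and neuraminidase, with 55.4 CPM with SRα siRNA and 51.3 CPM with control siRNA (0.11, -0.21 to 0.44).

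Glycosidases and sulfatases, which take sugars and sulfates off glycoproteins, glycolipids and glycosaminoglycans, were evenly divided, with 5 of 10 measured genes lower and a median of 0.00. GLA (ENSG00000102393.5) was the most-read member of all, with 2433 reads (632 CPM) in the SRα siRNA library and 1747 reads (705 CPM) in the control siRNA library, a log2 ratio of -0.16 (-0.25 to -0.07), or 0.896 times (0.842 to 0.954). It gave 54.0% of the group's reads with SRα siRNA and 56.9% with control siRNA. The summed log2 ratio of the group was -0.08 (-0.15 to -0.02) with GLA and 0.01 (-0.09 to 0.11) without it, an alternative chosen after seeing the data.

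The α-glucosidase GAA, the enzyme missing in Pompe disease, had 157 CPM with SRα siRNA and 155 CPM with control siRNA (log2 ratio 0.02, -0.17 to 0.21). The β-galactosidase GLB1 had 101 CPM with SRα siRNA and 96.9 CPM with control siRNA (0.06, -0.17 to 0.30). The β-glucuronidase GUSB had 95.4 CPM with SRα siRNA and 96.1 CPM with control siRNA (-0.01, -0.25 to 0.23). All 3 lay within counting error of equal levels. The annotation lists 10 pseudogenes named after GUSB, which held 7 reads in the SRα siRNA library and 10 in the control siRNA library, and since reads that align to several places were not counted, the level of GUSB is uncertain. HEXA, a β-hexosaminidase chain, had -0.04 (-0.33 to 0.25) and the fucosidase FUCA1 had 0.01 (-0.42 to 0.44). The mannosidases pointed apart, with MANBA at -0.25 (-0.76 to 0.26) from 77 reads with SRα siRNA and 59 with control siRNA, and MAN2B1 at 0.16 (-0.28 to 0.60) from 123 reads with SRα siRNA and 71 reads with control siRNA. The heparan sulfate enzymes NAGLU, a glucosaminidase, and SGSH, a sulfatase, had -0.15 (-0.73 to 0.43) and 0.14 (-0.39 to 0.68).

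The group of lipid hydrolases, activators and carriers held 3 of the 5 members whose interval lay below 0. Such intervals were found for 3.39% of all measured genes and 4.89% of those of at least 50 CPM. Whether an interval leaves out 0 depends on depth. NPC1, at -0.14 from 400 reads with SRα siRNA and 284 with control siRNA, held 0, while PSAP and PPT1, at -0.14 from more reads, did not. PSAP (ENSG00000197746.9), the precursor of the saposins that present lipids to hydrolases, had 1728 reads (449 CPM) in the SRα siRNA library and 1222 reads (493 CPM) in the control siRNA library, a log2 ratio of -0.14 (-0.24 to -0.03). PPT1 (ENSG00000131238.12), which removes palmitate from proteins, had 1340 reads (348 CPM) with SRα siRNA and 953 reads (385 CPM) with control siRNA, a log2 ratio of -0.14 (-0.27 to -0.02). GRN (ENSG00000030582.12), progranulin, a secreted and lysosomal glycoprotein that binds sortilin and prosaposin, had 530 reads (138 CPM) with SRα siRNA and 420 reads (170 CPM) with control siRNA, a log2 ratio of -0.30 (-0.49 to -0.11), or 0.812 times. GRN had the lowest ratio of the 47 measured members. Its GC content is 61.8%, against a median of 47.6% over measured genes, and with the median of genes of like GC content removed its log2 ratio was -0.22 (-0.41 to -0.04).

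The other lipid-handling genes did not share this direction as a set. The sphingomyelinase SMPD1 had -0.23 (-1.09 to 0.63) from 29 reads with SRα siRNA and 22 with control siRNA, too few to resolve. LIPA, the acid lipase that frees cholesterol from its esters, had 213 CPM with SRα siRNA and 205 CPM with control siRNA (0.05, -0.11 to 0.22). ASAH1, acid ceramidase, had 76.4 CPM with SRα siRNA and 69.9 CPM with control siRNA (0.13, -0.15 to 0.41). NPC2, the soluble carrier that hands cholesterol to NPC1, had 157 reads (40.8 CPM) with SRα siRNA and 81 reads (32.7 CPM) with control siRNA, a log2 ratio of 0.32 (-0.08 to 0.72). Summed, the 7 genes had 1272 CPM with SRα siRNA and 1364 CPM with control siRNA, a log2 ratio of -0.10 (-0.16 to -0.04), and -0.08 (-0.16 to -0.001) without PSAP.

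The proteins of the lysosomal membrane lay close to 0, with 3 of 8 lower, a median of 0.07 and a summed log2 ratio of 0.00 (-0.08 to 0.09). The heavily glycosylated LAMP1 had 864 reads (225 CPM) in the SRα siRNA library and 541 reads (218 CPM) in the control siRNA library, a log2 ratio of 0.04 (-0.12 to 0.20). LAMP2, its relative needed for autophagosome fusion and chaperone-mediated autophagy, had 169 CPM with SRα siRNA and 173 CPM with control siRNA (-0.04, -0.21 to 0.14). SCARB2, the receptor that carries β-glucocerebrosidase to lysosomes, had 117 CPM with SRα siRNA and 110 CPM with control siRNA (0.09, -0.13 to 0.31). These 3 glycoproteins were thus level within their counting error. NPC1, which exports cholesterol, had 104 CPM with SRα siRNA and 115 CPM with control siRNA (-0.14, -0.36 to 0.08), while its partner NPC2 lay on the other side of 0. The calcium channel MCOLN1 had -0.10 (-0.58 to 0.38), TMEM192, a protein often tagged to purify lysosomes, 0.10 (-0.24 to 0.45) and HGSNAT, the acetyltransferase of heparan sulfate breakdown, 0.18 (-0.43 to 0.80). CLN3, a membrane protein lost in juvenile ceroid lipofuscinosis, had 10 reads with SRα siRNA and 6 with control siRNA and gave no usable ratio (0.10, -1.50 to 1.84). In GENCODE 29, 1 gene on the same strand overlaps the exons of CLN3 and is also among the counted IDs. Reads that match several genes were not assigned to either. MCOLN1 and MAN2B1 each have 2 such overlaps, with 91 and 123 reads under SRα siRNA. The part of the overlap in the low count of CLN3 was not tested.

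**Figure D3:**
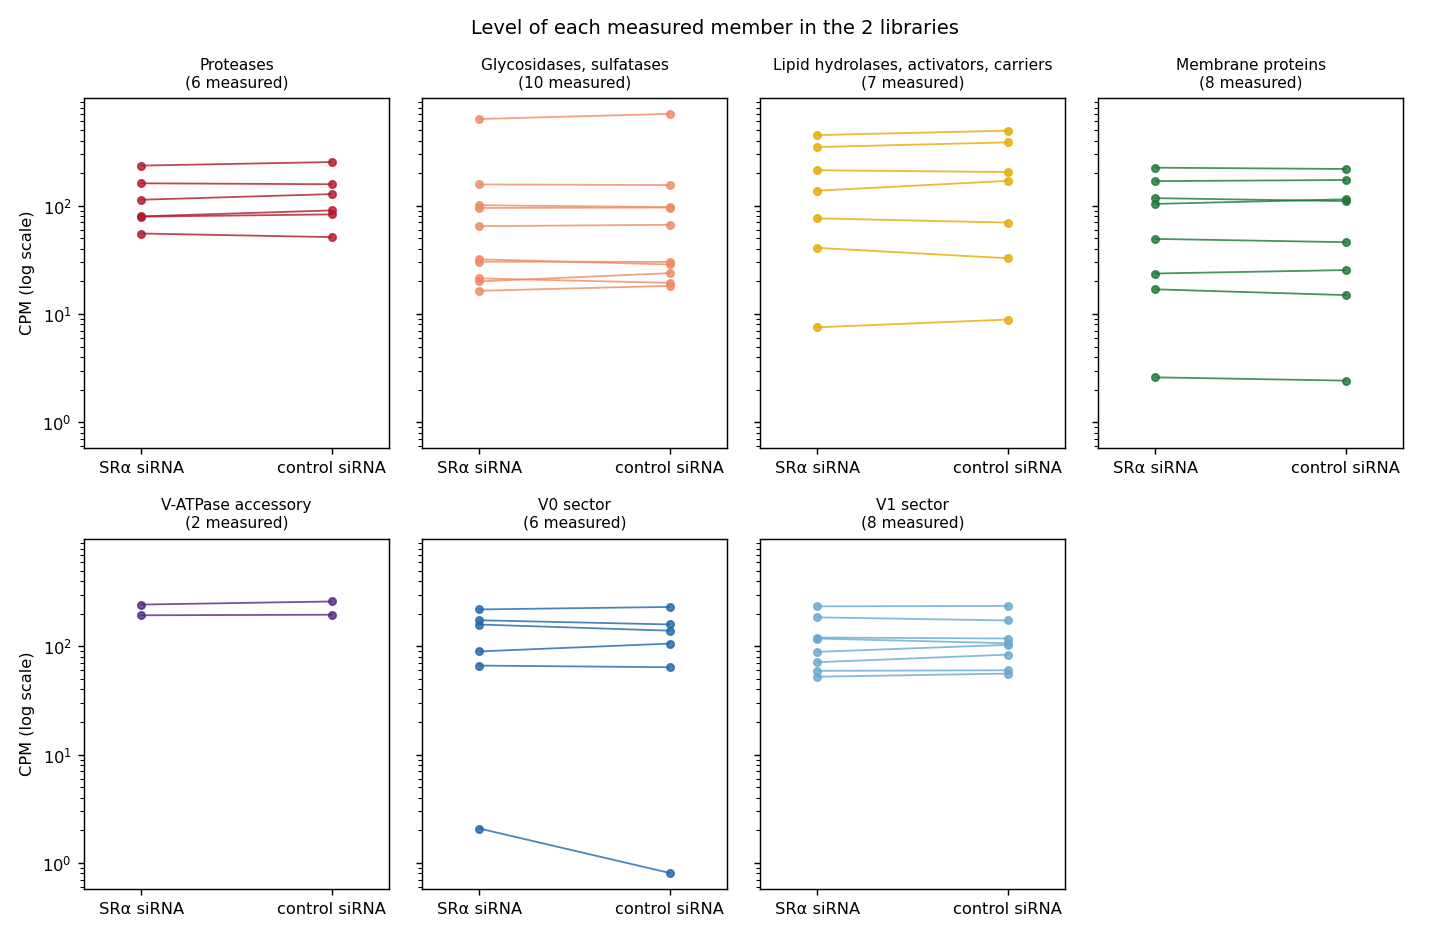
CPM (log axis) of each measured member in the SRα siRNA library (left point) and the control siRNA library (right point), joined by a line, in a panel for each role. The lines are nearly level, GLA is the topmost line of the glycosidases at 632 and 705 CPM, and only ATP6V0C, at 2.08 and 0.808 CPM, has a steep line.

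The V-ATPase was at like levels in both libraries. Summed over its 14 V0 and V1 subunits, there were 1643 CPM in the SRα siRNA library and 1641 CPM in the control siRNA library, a log2 ratio of 0.00 (-0.06 to 0.06), with 7 subunits lower and 7 higher. The interval of the luminal genes, -0.13 to -0.05, overlapped this one at its edge. The accessory proteins, which are cleaved in the secretory pathway and help assemble the pump, had log2 ratios of -0.09 (-0.24 to 0.05) for ATP6AP1, with 244 CPM with SRα siRNA and 260 CPM with control siRNA, and -0.02 (-0.18 to 0.15) for ATP6AP2, with 194 CPM with SRα siRNA and 196 CPM with control siRNA.

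Among the V0 subunits the isoforms of subunit a differed in direction. ATP6V0A1 (ENSG00000033627.10) had 671 reads (174 CPM) in the SRα siRNA library and 395 reads (160 CPM) in the control siRNA library, a log2 ratio of 0.13 (-0.05 to 0.31). ATP6V0A2 (ENSG00000185344.9), an isoform found at the Golgi and mutated in a form of cutis laxa, had 346 reads (89.9 CPM) with SRα siRNA and 263 reads (106 CPM) with control siRNA, a log2 ratio of -0.24 (-0.48 to -0.003). The 2 counting intervals overlap, and that of ATP6V0A2 barely leaves out 0. ATP6V0D1, the subunit that couples the rotor to V1 and crosses no membrane, had 613 reads (159 CPM) with SRα siRNA and 346 reads (140 CPM) with control siRNA, a log2 ratio of 0.19 (-0.003 to 0.38). The proteolipid ATP6V0B had -0.08 (-0.23 to 0.08) and the small subunit ATP6V0E1 had 0.05 (-0.24 to 0.35). ATP6V0C, the main proteolipid of the rotor ring, had 8 reads with SRα siRNA and 2 with control siRNA, and its log2 ratio of 1.21 has an interval from -0.96 to 4.64. In GENCODE 29, 2 genes on the same strand overlap the exons of ATP6V0C and 4 pseudogenes carry its name, so its level here is uncertain. Better-read members such as MCOLN1 have same-strand overlaps too, and their part in the low count of ATP6V0C was not tested. Without it, as when at least 30 reads were required, the V0 median was 0.05 in place of 0.09.

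The cytosolic V1 sector had 932 CPM in the SRα siRNA library and 939 CPM in the control siRNA library, a summed log2 ratio of -0.01 (-0.09 to 0.06), with 5 of 8 subunits lower. The catalytic subunit ATP6V1A had 902 reads (234 CPM) with SRα siRNA and 586 reads (237 CPM) with control siRNA, a log2 ratio of -0.01 (-0.17 to 0.14), and its partner in the catalytic ring ATP6V1B2 had 118 CPM with SRα siRNA and 107 CPM with control siRNA (0.14, -0.08 to 0.37). The subunits at the 2 ends of the sector's range were ATP6V1F, a part of the central stalk, with 71.5 CPM with SRα siRNA and 84.0 CPM with control siRNA (-0.23, -0.50 to 0.03), and ATP6V1B2. ATP6V1H, which regulates the pump's activity, had 89.1 CPM with SRα siRNA and 103 CPM with control siRNA (-0.21, -0.45 to 0.03). The stalk subunits ATP6V1D and ATP6V1E1 had -0.10 (-0.42 to 0.23) and -0.02 (-0.32 to 0.29), ATP6V1C1 had 0.03 (-0.18 to 0.25) and ATP6V1G1 had 0.10 (-0.08 to 0.27). No V1 subunit had an interval that left out 0. The log2 ratios of its subunits thus lay between -0.23 and 0.14.

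**Figure D4:**
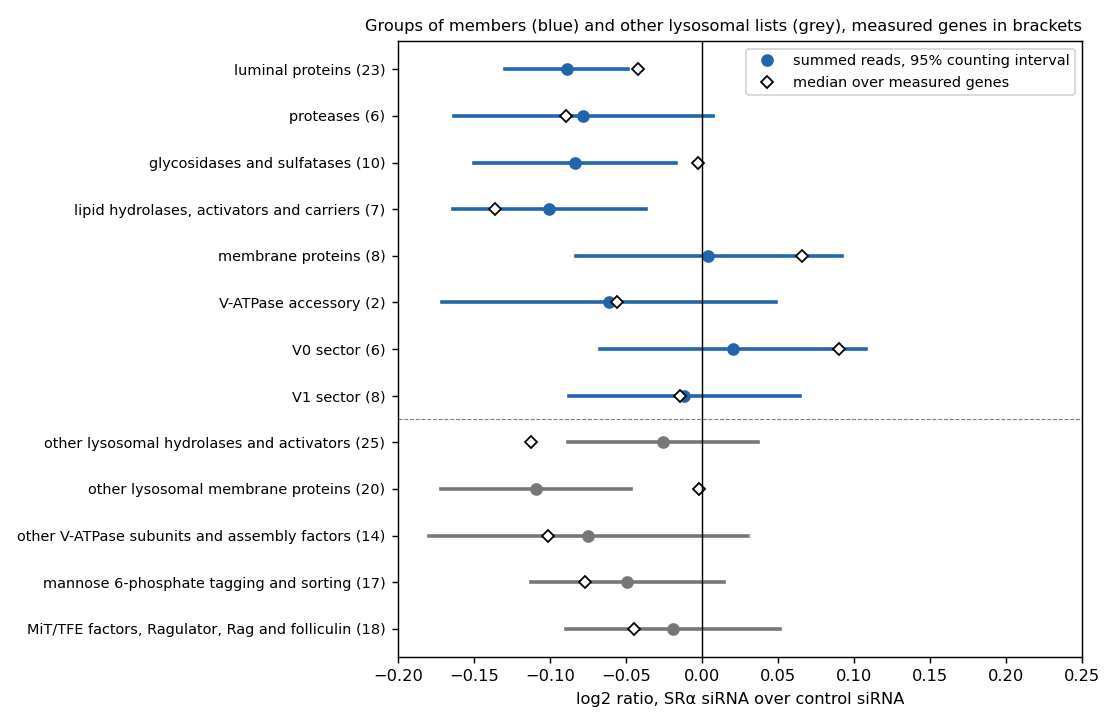
Log2 ratio of SRα siRNA over control siRNA for the summed reads of each group (filled circles with 95% counting intervals) and the median over its measured genes (open diamonds), for groups of members in blue and other lysosomal lists in grey. The luminal genes lie at -0.09 (-0.13 to -0.05) and the V1 sector at -0.01 (-0.09 to 0.06).

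Levels per length gave an order of the messages within each library. CPM was divided by the union of exons in GENCODE 29, in kilobases. This union spans all annotated transcripts and can be longer than the message present. It ran from 789 bases for ATP6V1F to 19341 bases for SCARB2, so the order depends in part on the annotation. GLA had the highest level, 278 CPM per kb in the SRα siRNA library and 310 CPM per kb in the control siRNA library, above 98.9% of measured genes in the control siRNA library. It was followed with SRα siRNA by ATP6V1G1, PSAP and ATP6V1F at 142, 139 and 90.6 CPM per kb, and with control siRNA by PSAP, ATP6V1G1 and ATP6V1F at 152, 133 and 106 CPM per kb. The order of PSAP and ATP6V1G1 differed between the libraries, and over the 47 measured members the log2 levels of the libraries had a Spearman's rho of 0.995 across genes. Median levels were 37.4 CPM per kb with SRα siRNA and 41.7 CPM per kb with control siRNA for lipid hydrolases, activators and carriers, and 6.03 CPM per kb with SRα siRNA and 6.07 CPM per kb with control siRNA for membrane proteins. V1 subunits had medians of 19.6 CPM per kb with SRα siRNA and 20.3 CPM per kb with control siRNA, and V0 subunits 17.7 and 15.8. Subunit G1 led the V1 sector, and subunit D was its lowest, at 12.3 CPM per kb with SRα siRNA and 13.2 CPM per kb with control siRNA. The annotation lists 5 pseudogenes named after ATP6V1G1, 5 after CTSL and 4 after ATP6V0E1. Since reads that align to several places were not counted, the levels of these genes are uncertain too.

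Of the 51 members, 4 were not measured, all of them luminal. CTSZ, a carboxypeptidase, and NEU1, the lysosomal sialidase, were listed at 0 in both libraries, which at 3 reads allows up to 0.780 CPM in the SRα siRNA library and 1.21 CPM in the control siRNA library. IDS, iduronate sulfatase, had 2 reads with SRα siRNA and 1 with control siRNA, and IDUA, iduronidase, had 2 reads in each. The 0 of NEU1 cannot be read as an absent message, because of 39 protein-coding genes among the 20 nearest on either side of it in RefSeq's order on chromosome 6, 38 also had 0 reads in both libraries. For CTSZ this was so for 9 of 37 neighbours (24.3%), for IDS for 19 of 33 (57.6%) and for IDUA for 7 of 30 (23.3%). Of all 18683 protein-coding genes matched, 28.6% had 0 reads in both libraries. IDS is overlapped on its own strand by 2 genes among the counted IDs, and IDUA on the opposite strand by 1. Better-read members such as GLB1 have overlaps on both strands too, and the part of overlaps in the low counts was not tested.

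The promoters were searched for the E-box core that MiT/TFE factors bind. The window from 250 bases before to 50 after the gene start, from RefSeq on GRCh38.p14, was found for 37 of the 51 genes and read on both strands for CACGTG and for GTCACGTG and TCACGTGA, which contain it. CACGTG was present in 10 of 37 members (27.0%), against 13.0% of 9428 measured protein-coding genes and 8.77% of 27305 genes with a promoter. GTCACGTG was present in 9 (24.3%), against 5.57% and 2.93%, and TCACGTGA in 7 (18.9%), against 2.43% and 1.18%. The 9 were CTSA, CTSD, GAA, LAMP1, MCOLN1, CLN3, ATP6V0B, ATP6V0D1 and ATP6V1G1. A match describes letters and does not show binding. Such a motif was already known for many of these genes, so its higher share could be foreseen and tests nothing here.

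Windows from 220 bases before to 20 after the start are shown for 5 genes with matches, 1 or 2 from each role that had any outside V0, and for GLA, the most-read member, which had none. Capitals mark CACGTG.
GAA promoter, chr17:80101361-80101600, plus strand: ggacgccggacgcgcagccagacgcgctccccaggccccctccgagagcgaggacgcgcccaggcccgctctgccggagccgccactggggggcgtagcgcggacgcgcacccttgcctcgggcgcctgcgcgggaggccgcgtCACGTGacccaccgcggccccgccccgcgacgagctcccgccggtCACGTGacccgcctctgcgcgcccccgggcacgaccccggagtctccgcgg
MCOLN1 promoter, chr19:7522404-7522643, plus strand: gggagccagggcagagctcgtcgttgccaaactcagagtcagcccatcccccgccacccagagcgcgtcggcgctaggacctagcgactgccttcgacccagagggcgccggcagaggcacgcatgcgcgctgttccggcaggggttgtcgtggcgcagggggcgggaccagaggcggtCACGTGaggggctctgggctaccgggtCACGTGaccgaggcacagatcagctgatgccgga
ATP6V1G1 promoter, chr9:114587549-114587788, plus strand: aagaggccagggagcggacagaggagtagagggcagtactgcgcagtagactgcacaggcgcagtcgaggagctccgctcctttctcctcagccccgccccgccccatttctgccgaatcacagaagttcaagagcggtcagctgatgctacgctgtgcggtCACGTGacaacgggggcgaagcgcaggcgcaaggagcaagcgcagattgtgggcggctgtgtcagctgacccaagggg
LAMP1 promoter, chr13:113297019-113297258, plus strand: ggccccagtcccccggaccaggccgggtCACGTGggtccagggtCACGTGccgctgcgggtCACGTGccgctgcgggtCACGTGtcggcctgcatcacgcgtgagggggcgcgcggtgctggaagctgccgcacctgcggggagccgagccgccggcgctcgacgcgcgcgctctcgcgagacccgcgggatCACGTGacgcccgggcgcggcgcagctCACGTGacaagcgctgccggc
CTSA promoter, chr20:45891115-45891354, plus strand: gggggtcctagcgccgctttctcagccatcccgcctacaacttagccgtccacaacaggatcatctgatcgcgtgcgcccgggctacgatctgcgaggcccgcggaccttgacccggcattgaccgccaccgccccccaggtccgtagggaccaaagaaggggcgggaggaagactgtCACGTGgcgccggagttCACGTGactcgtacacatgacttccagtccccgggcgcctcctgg
GLA promoter, chrX:101407906-101408145, minus strand: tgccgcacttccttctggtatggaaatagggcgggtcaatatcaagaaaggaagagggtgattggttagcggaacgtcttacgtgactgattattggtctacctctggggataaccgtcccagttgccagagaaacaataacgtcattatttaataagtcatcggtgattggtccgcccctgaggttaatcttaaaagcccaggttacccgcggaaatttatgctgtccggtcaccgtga

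LAMP1 held 6 copies of CACGTG in this window, and GAA, MCOLN1 and CTSA held 2 each. The matches in GAA began 76 and 31 bases before the start, and that in ATP6V1G1 58 bases before it. The 9 measured members with GTCACGTG had a median log2 ratio of 0.04, between -0.17 and 0.19, with 3 lower and 6 higher in the SRα siRNA library. The 24 measured members whose promoter lacked it had a median of -0.02, with 14 lower and 10 higher. The set without it ran from -0.30 to 1.21, its upper end being ATP6V0C, from 8 reads with SRα siRNA and 2 with control siRNA. Whether the motif has a part in these ratios was not tested.

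**Figure D5:**
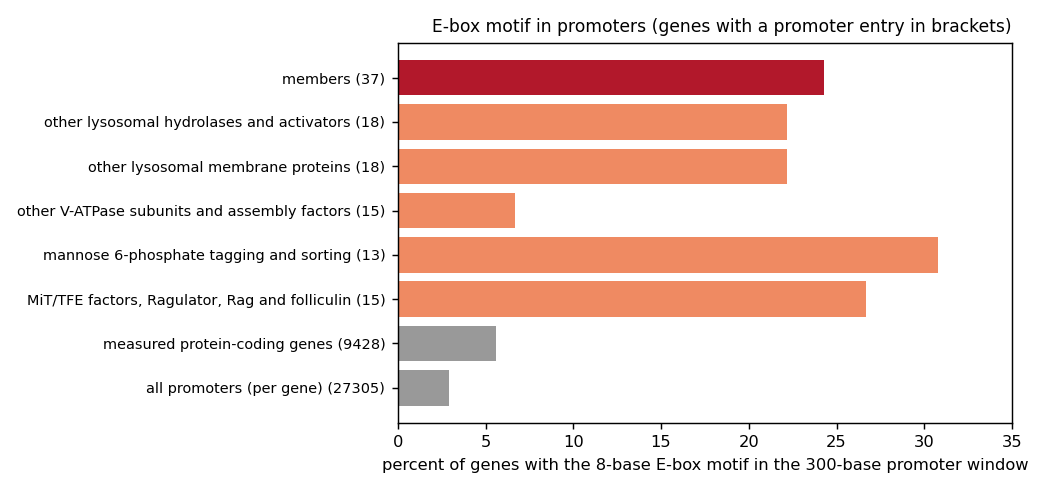
Percent of genes with GTCACGTG, on either strand, in the window from 250 bases before to 50 after the gene start (bars from 0), for the members, 5 other lysosomal lists, measured protein-coding genes and all genes with a promoter, with the number of genes in brackets. The members stand at 24.3%, against 5.57% of measured protein-coding genes.

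Other genes of the pathway had list medians between -0.11 and 0.00. Among all 12747 measured genes 48.6% were lower, and the interval lay below 0 for 3.39% and above 0 for 5.46%. Of 25 measured lysosomal hydrolases and activators outside the members, 17 were lower and 8 higher in the SRα siRNA library (median -0.11, summed -0.03, -0.09 to 0.04), with an interval below 0 for 2 and above 0 for 1. The phospholipase PLA2G15 had 7.02 CPM with SRα siRNA and 13.3 CPM with control siRNA (-0.91, -1.72 to -0.15), and the ganglioside activator GM2A had 28.1 CPM with SRα siRNA and 40.4 CPM with control siRNA (-0.52, -0.93 to -0.12). Toward the other end stood the sialate esterase SIAE, at 0.31 (-0.02 to 0.65). The genes named from each list come from the 2 lowest and 2 highest among those of at least 5 CPM, a choice that the intervals do not allow for.

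Other lysosomal membrane proteins were divided 10 to 10, with a median of 0.00 and a summed log2 ratio of -0.11 (-0.17 to -0.05). The interval lay below 0 for 5 of 20 and above 0 for 0, against 3.39% and 5.46% of all measured genes. Besides the sialic acid exporter SLC17A5, these were CLCN7 at -0.34 (-0.65 to -0.03), CD164 at -0.23 (-0.39 to -0.07), CD63 at -0.21 (-0.38 to -0.03) and LAPTM4B at -0.15 (-0.27 to -0.03), named after their values were seen. The 2 lowest and 2 highest were SLC17A5 at -0.48 (-0.89 to -0.08), GPR137 at -0.49 (-1.27 to 0.28), OSTM1, the partner of the chloride exchanger CLCN7, at 0.51 (-0.06 to 1.11) and the potassium channel TMEM175 at 0.64 (-0.22 to 1.59). Remaining V-ATPase subunits and assembly factors were lower in 10 of 14 (median -0.10), against 48.6% of all measured genes. They ran from ROGDI at -0.58 (-1.39 to 0.22) and TMEM9 at -0.28 (-0.45 to -0.12) to the assembly factors VMA21 at 0.26 (-0.03 to 0.56) and TMEM199 at 0.60 (-0.36 to 1.68).

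The machinery that tags and sorts hydrolases was lower in 12 of 17 genes, against 48.6% of all measured genes. The amounts were small (median -0.08, summed -0.05, -0.11 to 0.01), and no interval left out 0. Its extremes were GNPTG, a subunit of the phosphotransferase that makes the mannose 6-phosphate tag, at -0.41 (-1.24 to 0.41), CLN6 at -0.24 (-0.53 to 0.05), the sorting receptor SORT1 at 0.05 (-0.15 to 0.26) and the clathrin adaptor subunit AP1M1 at 0.12 (-0.19 to 0.44). MiT/TFE factors with the Ragulator, Rag and folliculin genes that control them were lower in 11 of 18, against the same 48.6% (median -0.04, summed -0.02, -0.09 to 0.05). Their lowest ratios were those of FLCN at -0.32 (-0.94 to 0.31) and FNIP2 at -0.26 (-1.03 to 0.52), and the highest those of the GTPases RRAGD at 0.39 (-0.34 to 1.16) and RRAGB at 0.55, the last from 23 reads with SRα siRNA and 10 with control siRNA. TFEB itself, added by name after its values were seen, had 9 reads with SRα siRNA and 7 with control siRNA, and TFE3 had 75 with SRα siRNA and 37 with control siRNA (0.38, -0.20 to 0.99). For TFEB and TFE3 a difference was not detectable at this depth. In this list 1 interval left out 0, that of the Ragulator subunit LAMTOR4, at -0.17 (-0.32 to -0.01). Over all measured genes 3.39% of intervals lay below 0 and 5.46% above.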

How the data were processed

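The deposited values are raw counts, whole numbers of reads for each Ensembl gene ID. The submitters' processing notes name cutadapt, STAR 2.5.2b and the build hg19. Which program counted the reads, and with which strand setting and annotation, is not given in the sources used here. Per the labels' protocols, TRIzol was used for RNA extraction and a stranded mRNA kit for the libraries. The 5 summary lines per file were kept out of library sizes: 76.5% of alignment entries with SRα siRNA and 79.6% with control siRNA were not unique, and 4.58% and 4.67% of unique reads matched several genes. Genes with near-identical copies or overlapping neighbours therefore lose reads.

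Libraries were scaled by TMM factors (edgeR 4.0.16, R 4.3.3). Log2 ratios used a prior count of 0.5 scaled to depth, and intervals are exact (Clopper-Pearson) 95% binomial intervals of both counts given their sum. Reads are not independent molecules, so intervals and floors cover counting error only. A gene name table supplied symbols for 51996 IDs and GENCODE 29 for 342 more, which left 5482 unnamed. GENCODE 29 was used by gene ID for GC content, exon length, overlaps and coding sequence, and GC content was known for 98.8% of measured genes. Coordinates are given for RefSeq promoters on GRCh38.p14 alone. The coverage of the interval was checked on simulated Poisson counts, which hold counting error only and no variation between libraries or cultures. The members, the lists and the measures were chosen with earlier results of these data known. Every member is named, with SRPRA and, of each companion list, the 2 highest and 2 lowest ratios among genes of at least 5 CPM, of which 1 is not reported here. As alternatives, scaling by totals of gene reads, by upper quartiles or by size factors of DESeq2 1.42.0 was tried, with other filters, a prior count of 2 and removal of trends with GC and expression. Python 3.11.15 with numpy 2.4.6, pandas 2.3.3, scipy 1.17.1 and matplotlib 3.10.9 was used.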

Additional observations from a re-analysis of the deposited data

How the results depend on the processing

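No paired analysis was possible because each group has 1 library, and no difference between the groups was tested. The summed ratios of the membrane proteins and V0 had no fixed sign under the 8 alternatives. That of the membrane proteins was -0.0322 with totals of gene reads, -0.0169 with the median of genes of like GC content removed and -0.0347 with that of genes of like CPM removed. That of V0 was -0.0161 with totals and -0.0186 with like CPM. The summed ratio of V1 stayed below 0 throughout, from -0.0069 with DESeq2 size factors to -0.0517 with like GC. These shifts stayed within the counting intervals. Of the measured members, 25 to 29 were lower, with 29 under totals and under like CPM. With totals of gene reads as the scaling, the median over all measured genes moved to -0.03, and relative to 0 the members' median became -0.0500 and their summed log2 ratio -0.0879. With the median of genes of like CPM removed, those 2 values were -0.0448 and -0.0912. The number of members with an interval above 0, which was 0, became 1 with DESeq2 size factors and 1 with the median of genes of like GC content removed, in both cases ATP6V0D1. The number below 0 ranged from 4 with DESeq2 size factors to 7 with totals or with genes of like CPM, and 4 genes, GLA, GRN, PPT1 and PSAP, were among them under every scaling, filter and prior tried, PSAP not once GC was removed. After the data had been seen, groups were also taken without their most-read member: the summed log2 ratio of glycosidases and sulfatases turned to 0.0092 without GLA, and the median of lipid hydrolases, activators and carriers moved to -0.0450 without PSAP, and the cause was not tested. A median of 256 control siRNA reads per measured member limits what can be resolved, and SMPD1, CLN3, ATP6V0C, IDS and IDUA are too shallow for a direction.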
